A study of Bos taurus with 6 samples.

Results

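KIT, KITLG, SOHLH1, SOHLH2, DMRT1 and STRA8 are genes of the step at which spermatogonia leave the stem cell pool and move towards meiosis. The members were taken by gene name from a table of 47249 genes, and 4 of the 6 names were found there: KIT, KITLG, DMRT1 and STRA8. No entry is named SOHLH1 or SOHLH2, and entries without a symbol that lie in the place of these genes are described apart. The values come from total RNA of untreated testes of Wandong cattle (Bos taurus), depleted of ribosomal RNA, with 1 library per animal from 3 immature calves aged 3 months and 3 andrologically mature bulls aged 3 years. The testis was sequenced as a whole piece, so every value is a mean over all cells in it.

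KIT is a receptor tyrosine kinase on the surface of differentiating spermatogonia, and KITLG is its ligand, made in the testis by Sertoli cells. DMRT1, a transcription factor of the doublesex family found in Sertoli cells and spermatogonia, holds back entry into meiosis in the mouse. SOHLH1 and SOHLH2 are basic helix-loop-helix factors of spermatogonia that act upstream of KIT, and STRA8 is the retinoic acid responsive protein needed at the start of meiosis. KIT is also known from mast cells, melanocytes, Leydig cells and neurons.

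The library labelled calf 3 stood apart from calf 1 and calf 2. FSHR, WT1, GATA4 and NR5A1, genes of Sertoli cells or steroidogenic cells, were listed at 0 there, and the summed FPKM of 7 Leydig cell genes reached 0.502, where calf 1 reached 1414 and calf 2 reached 1114. Over 8 genes of brain cells, calf 3 summed to 13684, while the other 5 libraries stayed between 10.5 and 17.1. CLDN11 and TF, which oligodendrocytes also make, gave 429 and 426 of the 876 FPKM that calf 3 had over the 12 Sertoli cell genes, where calf 1 had 1865, calf 2 had 1546 and the bulls had 253 to 339. Results that this library moved are therefore also given without it. Germ cells beyond meiosis marked the bulls, with summed FPKM of 6 genes of elongating spermatids between 13983 and 15545, against 8.72 to 10.7 in the calves.

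The values are FPKM as deposited, which are fragments scaled to the length of the transcript and to the mapped total of the library. Differences were taken on the log2(FPKM + 1) scale as bull minus calf and tested with limma over the 18115 genes that reached an FPKM of 1 in at least 3 libraries. A gene was called at an adjusted p (Benjamini-Hochberg) below 0.05 and a difference of at least 1. Of all genes tested, 45.3% were called, 35.7% higher and 9.61% lower in bulls, and the median difference was 0.43. All 4 members found passed the filter, and 1 of them, STRA8, was called. Without calf 3, 51.5% of the genes were called, 37.9% higher and 13.6% lower, and 2 members were called, STRA8 and KIT. The values of calves and bulls did not overlap for any of the 4, as for 67.4% of the genes tested. The p-values rest on the spread among these few animals.

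**Figure D1:**
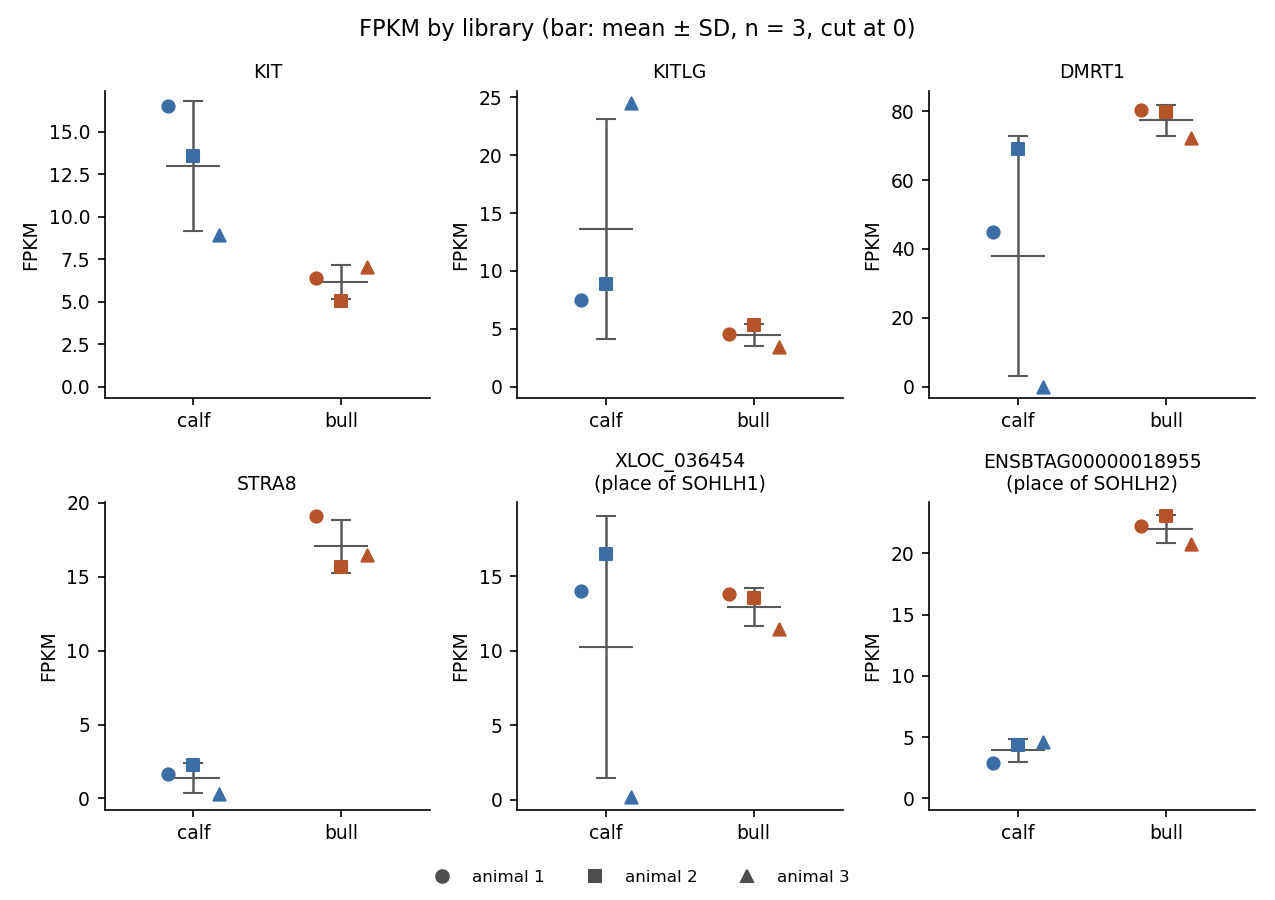
FPKM (vertical axis) of the 4 members and of 2 entries without a symbol in each library, with calves in blue and bulls in red, and grey bars for the mean ± SD of 3 animals. STRA8 was above 15 in each bull and below 2.5 in each calf, and calf 3 (blue triangle) was at or near 0 for DMRT1, STRA8 and the entry in the place of SOHLH1 but highest of all libraries for KITLG.

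KIT (ENSBTAG00000002699, chromosome 6, 70166692 to 70254044) was measured at 16.5 FPKM in calf 1, at 13.6 in calf 2 and at 8.90 in calf 3. The values of bull 1, bull 2 and bull 3 were 6.37, 5.06 and 7.03. All calves lay above all bulls, as did 21.3% of the genes tested. Calves had a mean of 13.0 ± 3.84 (SD, n = 3), which was 2.11 times the 6.16 ± 1.005 (SD, n = 3) of the bulls. On the log2 scale, KIT differed by −0.94 (standard error 0.26, adjusted p = 0.0234, limma), which met the threshold on p but not the one on size. Without calf 3, where KIT was lowest among the calves, the difference was −1.17 (adjusted p = 0.00107) and KIT was called lower in bulls. Leaving out any of the other 5 animals instead gave adjusted p between 0.0528 and 0.0868. FPKM is scaled to the mapped total of the library, so a lower value is a smaller share of the sequenced RNA. Whether KIT-positive cells were fewer or held less KIT RNA was not tested and cannot be told apart in bulk tissue.

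Genes of other cells that bear KIT were mixed in direction. The 7 mast cell genes in the table summed to 1.12 to 1.91 FPKM in calves and 3.78 to 6.71 in bulls. Of these sums, GATA2 alone gave 0.883, 1.11 and 1.21 in the calves and 1.39, 1.17 and 2.04 in the bulls. CPA3 rose from 0.0241, 0.217 and 0 to 1.59, 1.22 and 2.32 (1.31, adjusted p = 0.00125). HPGDS rose from 0.0348, 0 and 0.0867 to 1.09, 1.01 and 2.06 (1.17, adjusted p = 0.00207). Both passed the filter through the bulls alone. HDC, not tested, was also higher in each bull than in each calf, at or below 0.258. MS4A2, another gene of the list, was at 0 in 4 of the 6 libraries and below 0.05 in the others. For the 6 melanocyte genes, the sums were 6.32 to 11.3 in calves and 35.8 to 41.5 in bulls. Both sums were thus higher in the bulls, where KIT was lower, but some genes of both lists moved as KIT did. MITF, the transcription factor of melanocytes and mast cells, fell from 6.53, 4.86 and 10.5 to between 1.22 and 1.47 (−1.75, adjusted p = 0.00253), TYRP1 was at or below 0.117 in the calves and at 0 in the bulls, and the mast cell protease gene TPSB2 lay between 0.0717 and 0.591 in the calves and between 0.0159 and 0.0359 in the bulls. Their part in the KIT values was not tested.

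The table of transcripts gives KIT as KIT-201, which held 91.5% to 100% of the gene's FPKM in each library. The other entry, KIT-AS1 (chromosome 6, 70209885 to 70211202), named as an antisense transcript, was at 0.542 in bull 1 and 0.158 in bull 2 and at 0 elsewhere, and the value of the gene includes it. KIT-201 alone differed by −0.99 (standard error 0.27, adjusted p = 0.0222, limma over 23212 transcripts), and by −1.22 (adjusted p = 0.00240) without calf 3, when it was called.

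KITLG (ENSBTAG00000017549, chromosome 5, 18250809 to 18353485) reached an FPKM of 7.50 in calf 1, 8.83 in calf 2 and 24.5 in calf 3, and of 4.53, 5.31 and 3.42 in the bulls. The calves again lay above the bulls, but calf 3 held 3.01 times the mean of the other two calves. The means were 13.6 ± 9.48 (SD, n = 3) and 4.42 ± 0.949 (SD, n = 3). With all libraries, KITLG differed by −1.26 (standard error 0.45, 95% confidence interval −2.36 to −0.16) and was not called (adjusted p = 0.0542). Leaving out calf 3 gave −0.77 (adjusted p = 0.0107), a smaller difference with a smaller error that stayed under the size required for a call.

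Of the 4 entries for KITLG in the table of transcripts, 2 carried nearly all of its FPKM. In calf 1 and calf 2, KITLG-201 held 54.3% and 45.2% and KITLG-202 held 41.4% and 51.6%. The bulls had 53.5% to 64.3% in KITLG-201 and 35.6% to 42.7% in KITLG-202. In calf 3, KITLG-201 made up 93.3% with an FPKM of 22.9, and KITLG-202 was at 1.64, below calf 1 (3.11) and calf 2 (4.56). The excess of KITLG in calf 3 thus lay in KITLG-201. Neither entry was called (differences −1.28, adjusted p = 0.142, and −0.51, adjusted p = 0.242). Without calf 3, KITLG-201 differed by −0.53 (adjusted p = 0.0303) and KITLG-202 by −0.79 (adjusted p = 0.0339), so that the larger difference was then that of KITLG-202, and both met the threshold on p but not the one on size. Both lie at the same outer positions, and the tables used here do not say which exons separate them.

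DMRT1 (ENSBTAG00000033352, chromosome 8, 43600804 to 43697170) was the most abundant member per length in calf 1, calf 2 and the bulls. Its FPKM was 44.9, 68.9 and 0.0938 in the calves and 80.2, 79.7 and 72.2 in the bulls. All bulls lay above all calves, as in 46.1% of the genes tested, but calf 3 was far below the other calves. A calf mean of 38.0 ± 34.9 (SD, n = 3) against 77.4 ± 4.50 (SD, n = 3) for the bulls gave a log2 difference of 2.37 (standard error 1.57, 95% confidence interval −1.48 to 6.21, adjusted p = 0.244), within the spread of the calves. Without calf 3, this was 0.47 (adjusted p = 0.0595), and bulls had 1.36 times the mean FPKM of calf 1 and calf 2. DMRT1-201 is its single entry in the table of transcripts.

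STRA8 (ENSBTAG00000001346, chromosome 4, 98862169 to 98996083) stood at 1.64, 2.28 and 0.290 FPKM in the calves and at 19.1, 15.7 and 16.5 in the bulls. The lowest bull was thus well above the highest calf. Calves had a mean of 1.40 ± 1.01 (SD, n = 3) and bulls of 17.1 ± 1.81 (SD, n = 3), and the log2 difference was 3.01 (standard error 0.37, adjusted p = 0.000830), and STRA8 was called higher in bulls. It was also called without calf 3 (2.61, adjusted p = 2.77e-05) and under each of the 14 other settings, with differences between 2.43 and 3.87.

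**Figure D2:**
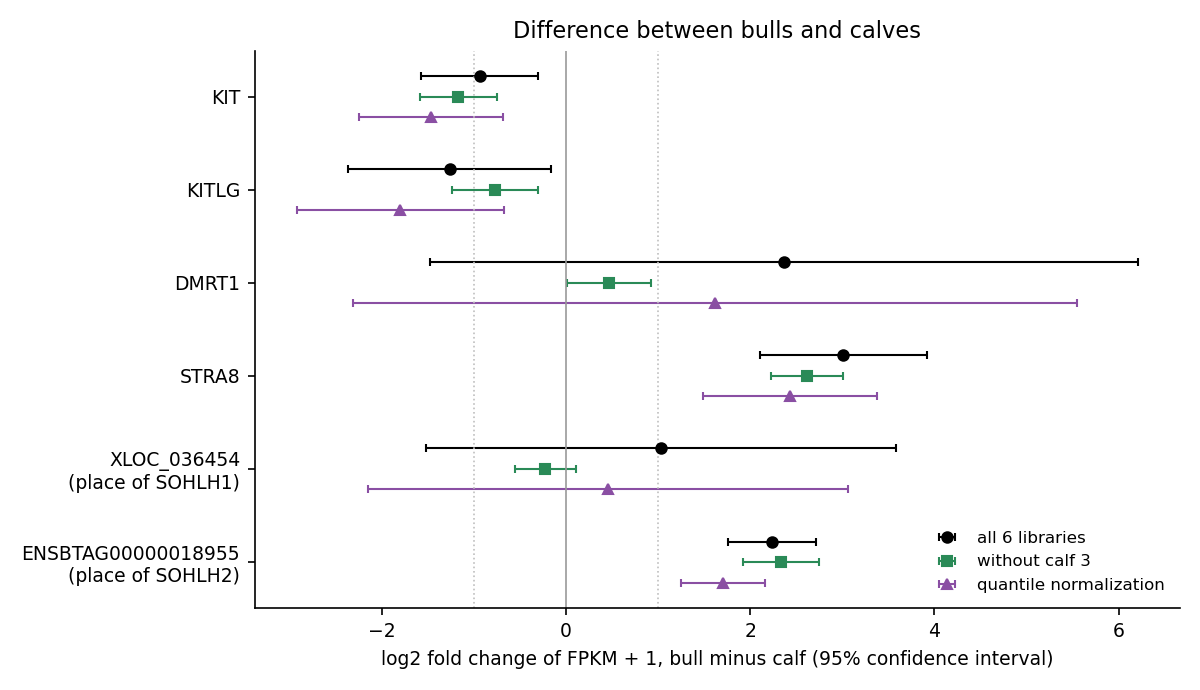
Log2 fold change of FPKM + 1, bull minus calf (horizontal axis), of each member and of 2 entries without a symbol, with 95% confidence intervals from limma for all 6 libraries (black), without calf 3 (green) and after quantile normalization (purple); dotted lines mark the size required for a call. The intervals of DMRT1 and of the entry in the place of SOHLH1 narrow when calf 3 is left out, while STRA8 and the entry in the place of SOHLH2 lie above 1 in all of them.

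The entries that make up STRA8 differed between calves and bulls. STRA8-201 (chromosome 4, 98862169 to 98885072) was at 0.135, 0.0519 and 0 FPKM in the calves and at 8.63, 10.3 and 8.42 in the bulls. It therefore held at most 8.26% of the gene's FPKM in a calf and 45.1% to 65.7% in the bulls. Its difference of 3.25 (standard error 0.18, adjusted p = 4.40e-05) was called, as were those of the assembled entries STRA8-OT1 (1.62, adjusted p = 0.0134) and STRA8-OT2 (1.44, adjusted p = 0.000117). These 3 calls were also made without calf 3, but STRA8-201 and STRA8-OT2 passed the filter through the bulls alone. Of all transcripts tested, 44.2% were called, 34.8% higher and 9.37% lower in bulls.

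In calf 1 and calf 2, the largest entry of STRA8 was STRA8-OT1, with 63.7% and 59.8% of the FPKM. This entry runs from 98877055 to 98996083, well past the end of both Ensembl transcripts of the gene at 98885072 and 98882323. The calves had 1.04, 1.36 and 0.0678 FPKM of it and the bulls 5.88, 2.89 and 4.55. STRA8-202 reached 0.460, 0.862 and 0.223 in the calves and 3.05, 0.872 and 1.44 in the bulls, and did not pass the filter. The FPKM of STRA8 as a gene in these calves was thus mostly that of entries other than STRA8-201.

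**Figure D3:**
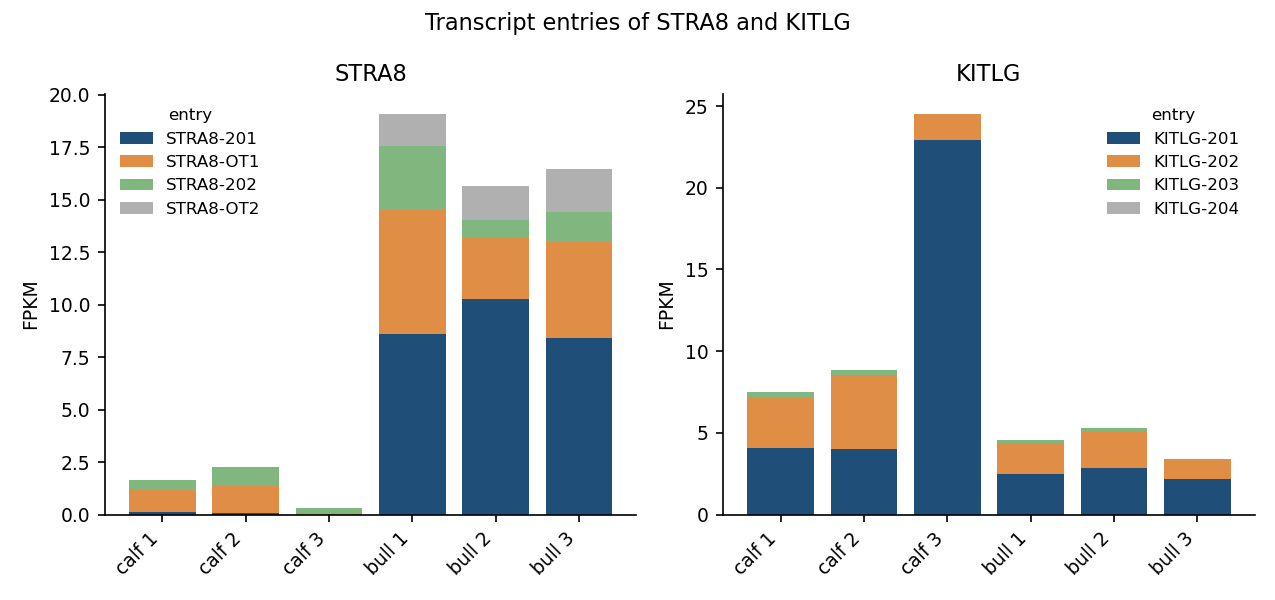
FPKM (vertical axis) of the transcript entries of STRA8 and KITLG in each library, stacked to the gene's sum. STRA8-201 (dark blue) is nearly absent in calves and the largest entry in bulls, and KITLG-201 (dark blue) makes up 93.3% of KITLG in calf 3.

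In the place of SOHLH1, between LCN9 and KCNT1, where the RefSeq gene list has SOHLH1 as the 1 protein-coding gene, lies the assembled entry XLOC_036454 (chromosome 11, 103299810 to 103304162). It had an FPKM of 14.0, 16.5 and 0.197 in the calves and of 13.8, 13.5 and 11.5 in the bulls. The groups overlapped, and the difference was 1.03 with calf 3 (standard error 1.04, adjusted p = 0.434) and −0.22 without it (adjusted p = 0.181), so its sign depended on that library. A weaker entry on nearly the same stretch, XLOC_031654, stayed at or below 1.70 in all libraries.

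SOHLH2 lies in the RefSeq list between SPART and DCLK1, together with CCDC169. The Ensembl gene ENSBTAG00000018955 (chromosome 12, 25276587 to 25302987) falls wholly within the SOHLH2 locus of that list but has no symbol in the table. Its FPKM was 2.86, 4.37 and 4.58 in the calves and 22.2, 23.0 and 20.8 in the bulls, without overlap. It was called higher in bulls (2.24, standard error 0.20, adjusted p = 0.000205) and also without calf 3 (2.34, adjusted p = 5.44e-05). It was not low in calf 3, which held 1.27 times the mean of calf 1 and calf 2. The table of transcripts puts the single transcript of this gene at 28.4 to 29.9 in the bulls and at 2.68, 3.98 and 7.81 in the calves. These are not FPKM but the values of the gene rescaled to the same sum in each library. Their difference of 2.46 is that of the gene after rescaling to a common sum. XLOC_038103, an assembled entry on chromosome 12 from 25209431 to 25315680, overlaps ENSBTAG00000018955. It reached 18.1 FPKM in bull 3 and 7.60 in calf 3, with 0.765 to 3.26 elsewhere. How fragments were shared between these entries is not known, and none of them is counted as a member.

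The order of the members by FPKM, which is per length, differed between the ages. In calf 1 and calf 2 it was DMRT1, KIT, KITLG and STRA8. In each bull, DMRT1 came first and STRA8 next, while KIT and KITLG lay close together, KIT above KITLG in bull 1 and bull 3 and below it in bull 2. Calf 3 had the order KITLG, KIT, STRA8 and DMRT1, with STRA8 and DMRT1 both below 0.3. The difference between log2(KIT + 1) and log2(KITLG + 1), taken within each library after the values were seen, was 1.04, 0.57 and −1.37 in the calves and 0.41, −0.06 and 0.86 in the bulls, and the groups overlapped. The difference between bulls and calves was 0.32, and −0.40 without calf 3, so its sign depended on that library.

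The rank of a gene within its library does not depend on the scaling of the library, but it does depend on the other tested genes. From 14325 to 14992 genes reached 1 FPKM in the calves and 17860 to 18982 in the bulls. A given FPKM can therefore rank higher in a calf than in a bull. KIT lay above 83.1%, 77.5% and 66.5% of the tested genes in the calves and above 42.3% to 50.5% in the bulls. KITLG lay above 63.7%, 66.7% and 88.2% in the calves and above 31.6% to 43.6% in the bulls. STRA8 moved the other way, from 32.0%, 36.1% and 21.2% to 70.7% to 75.6%. For DMRT1, calf 1 (95.1%) and calf 2 (96.7%) ranked slightly above the bulls (94.2% to 94.9%), although their FPKM was lower, and calf 3 was at 17.3%. The measure was added after the values were seen.

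The members were then set against marker lists in the same library, as log2(FPKM + 1) minus the mean of the list. Against the 12 Sertoli cell genes, DMRT1 lay at 0.97, 1.18 and −2.06 in the calves and between 2.53 and 2.86 in the bulls (difference 2.70, and 1.66 without calf 3). KITLG, set against the same genes, lay at −1.46, −1.65 and 2.49 in the calves and between −1.52 and −0.88 in the bulls, where the difference of −0.93 turned to 0.42 without calf 3. Without calf 3, 8 of these 12 genes were called lower in bulls and 2 higher, so both members are read here against a list of which most genes fell. The exact permutation test (two-sided) gave p = 0.1 for DMRT1, the smallest that 3 animals against 3 allow, and p = 0.9 for KITLG. Of 8 such comparisons computed, none could thus pass a threshold of 0.05, before or after adjustment.

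Against the 16 genes of undifferentiated spermatogonia in the table, KIT lay at 2.36, 1.93 and 1.08 in the calves and at 1.23, 0.86 and 1.24 in the bulls. Only calf 3 overlapped the bulls, and the difference was −0.68 with it (exact permutation test, two-sided, p = 0.3) and −1.04 without it (p = 0.1, the smallest possible). STRA8 rose against the same list, from −0.37, −0.22 and −1.86 to between 2.32 and 2.68, a difference of 3.27, and of 2.75 without calf 3. The corresponding difference was 2.63 for DMRT1 and 0.60 without calf 3. This list also moved in calf 3, where it summed to 315 FPKM, against 70.2 in calf 1 and 85.8 in calf 2. UCHL1 gave 201 and ID4 gave 50.2 of that sum, both highest in calf 3, while NANOS2, LIN28A and PAX7 were at 0. The germ cell gene DDX4 was at 0.0152 in that library. How much of the list in calf 3 came from spermatogonia was not tested, so its values are not read as levels relative to these cells. With the 7 Leydig cell genes as the reference, KIT was at −0.01, −0.33 and 3.21 in the calves and between −2.66 and −1.34 in the bulls, a difference of −2.76, and of −1.63 without calf 3. In the exact permutation test, these 3 comparisons also gave p = 0.1, with and without calf 3. The Leydig cell genes themselves had a median difference of 1.52, and of 0.68 without calf 3, and summed to 0.502 FPKM in calf 3. KIT is thus read there against a list that moved as well.

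**Figure D4:**
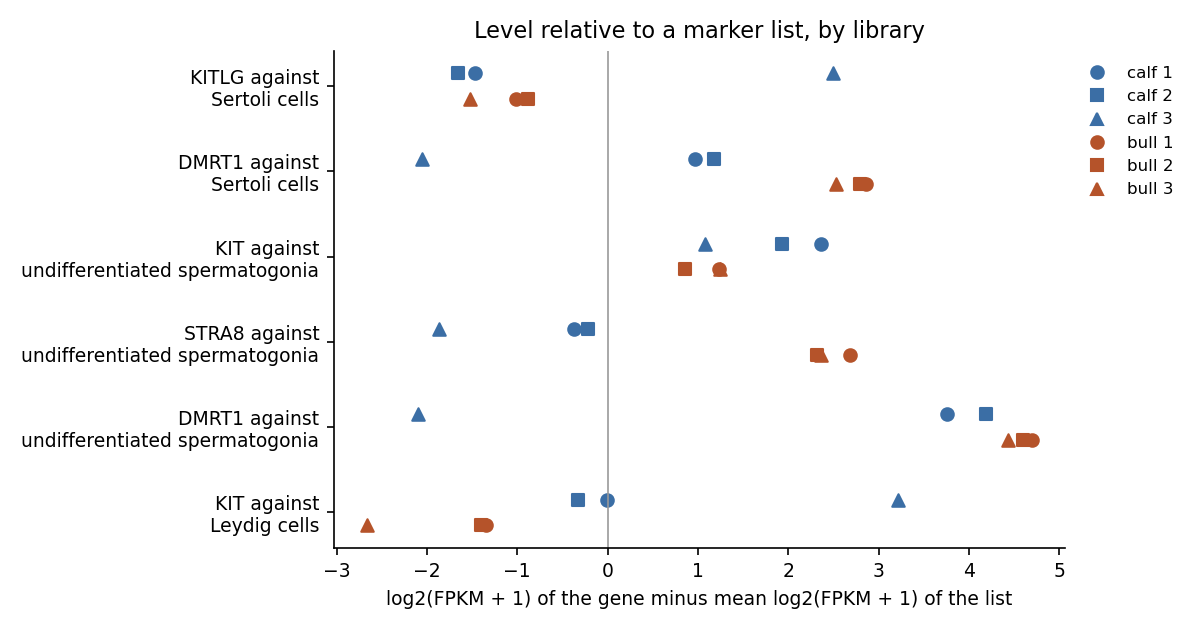
Log2(FPKM + 1) of a member minus the mean log2(FPKM + 1) of a marker list (horizontal axis) in each library, calves in blue and bulls in red, with circles, squares and triangles for animals 1, 2 and 3. The bulls lie close together in each row except KIT against Leydig cells, and calf 3 (blue triangle) lies outside the range of calf 1 and calf 2 in each row.

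The neighbouring genes of the pathway were counted over 6 lists. Together they hold 108 genes in the table besides the members, of which 92 were tested and 45 called, 30 higher and 15 lower in bulls. Of all genes tested, 45.3% were called, 35.7% higher and 9.61% lower, so the share called was near that of all genes. The counts of each list below are to be read beside these shares. The median difference of the listed genes, 0.17, lay under the 0.43 of all genes tested. Without calf 3, 49 of them were called, when 51.5% of all genes were. After quantile normalization, 21 were called higher and 25 lower, while over all genes 4683 were higher and 3917 lower and the median was −0.13. The split between higher and lower calls thus depended on the scaling. The filter also bears on these counts, since with calf 3 near 0 a gene expressed in calf 1 and calf 2 but below 1 FPKM in the bulls could not be tested. Outside KIT signalling, where all genes were tested, each list is therefore given with its untested genes. The 21 genes named by size in these lists were all called without calf 3 as well.

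Downstream of KIT, 3 of the 31 signalling genes tested were called higher and 8 lower in bulls, with a median of −0.51, against 3 and 10 and −0.44 without calf 3. GAB2, an adaptor that binds activated receptor complexes, had an FPKM of 17.2, 15.7 and 14.1 in the calves and of 3.78, 3.33 and 4.49 in the bulls (−1.78, adjusted p = 0.000318). PIK3R1, the regulatory subunit of PI3-kinase that KIT recruits, was at 20.9, 18.5 and 32.9 in the calves and at 6.44, 6.12 and 6.02 in the bulls (−1.76, adjusted p = 0.00124). Both were about as different without calf 3 (−1.85 and −1.52). In the other direction, SH2B3, an adaptor that restrains KIT signalling, rose from 2.43, 2.45 and 2.80 to 9.58, 10.5 and 11.3 (1.69, adjusted p = 0.000291). MAPK3, the kinase ERK1, rose from 14.8, 19.8 and 23.9 to 62.5, 51.1 and 75.6 (1.65, adjusted p = 0.00165) but was not called after quantile normalization (0.91).

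Among the 12 genes of undifferentiated spermatogonia that were tested, 3 were called higher and 3 lower, against 3 and 2 without calf 3 and 2 and 5 after quantile normalization. The 4 genes not tested, NANOS2, LIN28A, PAX7 and FOXC2, were all below 1 FPKM and higher in calf 1 and calf 2 than in the bulls. NANOS3, an RNA-binding protein of germ cells, rose from 2.68, 2.78 and 0.760 in the calves to 11.3, 16.4 and 17.3 in the bulls (2.44, adjusted p = 0.00182). LHX1, a homeobox factor, rose from 0.467, 0.441 and 0.304 to 4.42, 4.73 and 4.98 (2.02, adjusted p = 7.28e-05). ZBTB16, a repressor of spermatogonial differentiation that acts on KIT, fell from 14.9, 10.2 and 17.2 to 2.71, 3.16 and 2.81 (−1.93, adjusted p = 0.000669). LHX1 passed the filter through the bulls alone. FGFR3 also fell, with 1.71, 3.49 and 17.1 in the calves and 0.361 to 0.438 in the bulls (−2.11, adjusted p = 0.0406, and −1.31 without calf 3). It passed the filter through the calves alone, and needed calf 3 to do so. ZBTB16 and FGFR3 were highest in calf 3, the library with high values of brain cell genes, and are also expressed outside the germ line.

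For the partners of spermatogonial differentiation, 4 of 15 genes tested were called higher and 4 lower, and without calf 3 these were 5 and 4. Of the 6 genes not tested, 5 were higher in calf 1 and calf 2 than in each bull, among them LHX8, with 1.28 and 1.42 against 0.109 to 0.250. MEIOC, which stabilises the meiotic programme, was at 1.29, 1.45 and 0 in the calves and at 52.1, 55.3 and 49.6 in the bulls (4.91, adjusted p = 0.000112). DDX4, the germ cell RNA helicase VASA, was at 14.0, 20.2 and 0.0152 in the calves and at 156, 160 and 156 in the bulls (4.53, adjusted p = 0.0163, and 3.15 without calf 3). DDX4 was thus near 0 in calf 3 and well above 0 in the other calves. CCND2, a D-type cyclin of dividing spermatogonia, fell from 24.8, 33.8 and 32.1 to 3.60, 7.80 and 9.65 (−2.04, adjusted p = 0.00323). It was not low in calf 3, where DDX4 was near 0, so its values cannot be taken as those of spermatogonia alone.

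Of the 5 DMRT family genes tested, DMRT1 included, 4 were called higher in bulls and none lower, with and without calf 3, but DMRT2 passed the filter through the bulls alone. DMRTA1 was not tested, and had an FPKM of 2.80, 4.31 and 0.0553 in the calves and of 0.509 to 0.534 in the bulls, above the bulls in calf 1 and calf 2. DMRT3 lay between 0.577 and 0.731 except in calf 3, where it was at 0. DMRTB1, which in the mouse coordinates the passage from spermatogonia to meiosis, had an FPKM of 0.997, 1.32 and 0 in the calves and of 9.85, 9.02 and 8.63 in the bulls (2.61, adjusted p = 0.00109). DMRTC2, a factor of meiotic prophase, was at 1.66, 1.99 and 0 against 28.1, 29.3 and 27.4 (3.87, adjusted p = 0.000570). DMRTA2 and DMRT2 differed by 1.72 and 1.35, and DMRT2 was not called after quantile normalization (0.76). DMRT1, at a higher level than each of them in calf 1, calf 2 and the bulls, was the 1 tested member of the family that was not called.

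In the retinoic acid list, 3 of 16 genes tested were called higher and none lower, whereas without calf 3 the counts were 3 and 3. DHRS3 (−1.59) and ALDH1A3 (−1.13) were among the genes then called lower. STRA6 and CRABP2, a retinol transporter and a retinoic acid binding protein, were not tested: STRA6 was at 15.4 and 5.81 in calf 1 and calf 2 and at 0.352 to 0.586 in the bulls, and CRABP2 at 3.55 and 5.74 against 0.170 to 0.508. These 4 genes were named after their values were seen. ALDH1A2, an enzyme that makes retinoic acid, rose from 14.4, 13.3 and 0.127 to 93.0, 98.1 and 84.7 (3.88, adjusted p = 0.0194, and 2.64 without calf 3). The receptor gene RARB rose from 2.91, 3.00 and 2.06 to 6.92, 11.5 and 9.28 (1.47, adjusted p = 0.00268). CYP26A1, which breaks retinoic acid down, went from 0.314, 0.155 and 0.0323 to 2.05, 1.08 and 2.54 (1.28, adjusted p = 0.00370), and passed the filter through the bulls alone. The last 2 were not called after quantile normalization (0.99 and 0.76).

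The genes of meiotic entry, the programme that STRA8 starts, moved in 1 direction: 16 of 18 tested were called higher in bulls and none lower, with a median of 3.16, against 15 and none and 2.69 without calf 3. Of these genes, 2 passed the filter through the bulls alone, and PRDM9, not tested, lay between 0.0661 and 0.433 in the calves and between 0.933 and 1.36 in the bulls. HORMAD2, a protein of unsynapsed chromosome axes, was at 0.704, 1.67 and 0.319 in the calves and at 87.5, 79.9 and 75.4 in the bulls (5.49, adjusted p = 2.77e-05). HORMAD1 (4.48, adjusted p = 0.000697) and the meiotic cohesin STAG3 (4.40, adjusted p = 4.13e-05) followed MEIOC in size. The uncalled genes were REC8, with 0.490, 0.584 and 0.662 in the calves and 1.81, 1.68 and 1.98 in the bulls (0.84, under the size required), and TEX11 (2.31, adjusted p = 0.156, and 0.84, adjusted p = 0.00588, without calf 3), whose FPKM of 0.0467 in calf 3 stood against 18.3 and 24.4 in calf 1 and calf 2. Both were named after their values were seen. MEIOSIN, the partner of STRA8, has no entry of that name in the table.

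**Figure D5:**
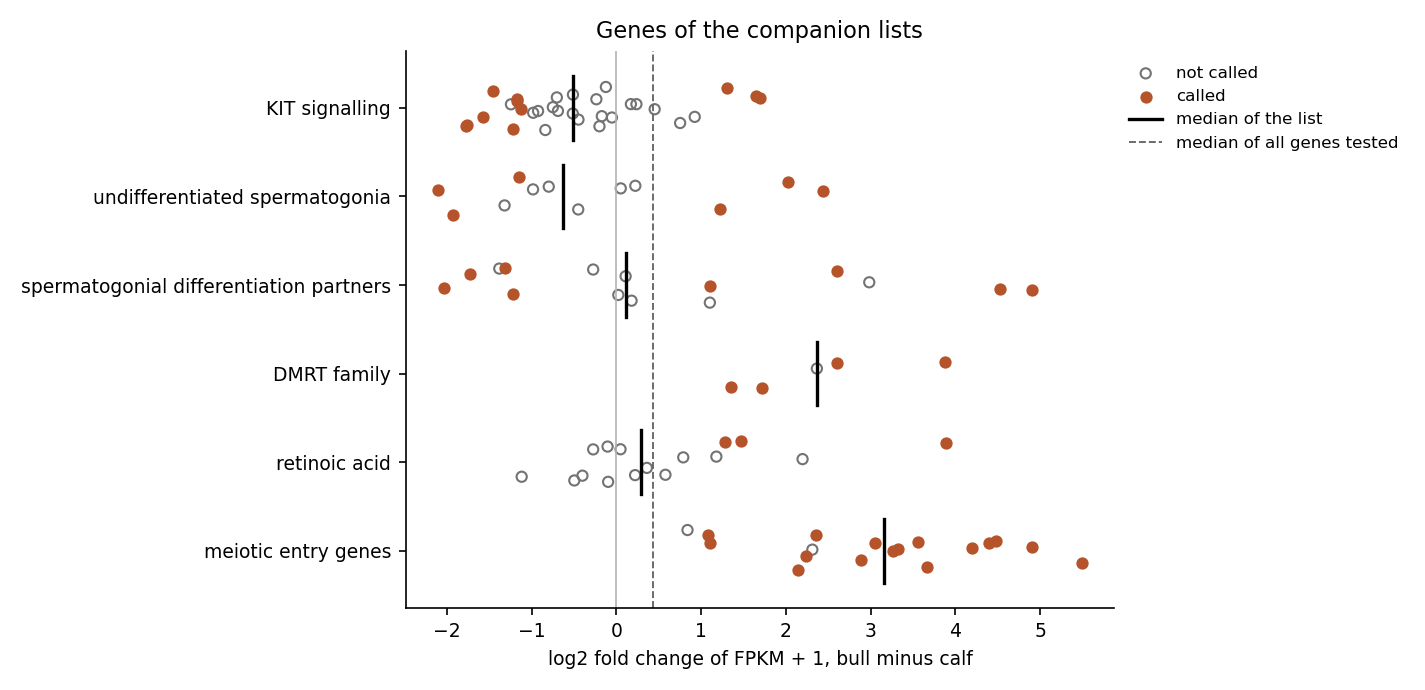
Log2 fold change of FPKM + 1, bull minus calf (horizontal axis), of the genes of 6 lists that passed the filter, filled where called, with the median of each list (black bar) and of all genes tested (dashed line, 0.43). Tested genes of meiotic entry and of the DMRT family lie to the right, while KIT signalling genes have a median of −0.51.

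The genes whose log2(FPKM + 1) followed a member most closely over the 6 libraries were found by Pearson's r among 13752 other genes with a symbol. The 6 points share the age contrast and calf 3, so the values are descriptive. For KIT, the 5 nearest were AKAP13, PEAR1, SPSB2, SPR and CDH11 (r from 0.993 to 0.997), and 328 genes had r of at least 0.95. KITLG was followed by VPS45, PGAM1, SLC25A4, TSC22D4 and RPRD1A (0.994 to 0.997, 680 genes), which were all highest in calf 3. RAD50, GINS2, MIA3, GNAL and PARD6B came nearest to DMRT1 (0.998 to 0.999, 427 genes), and all were lowest in calf 3. STRA8 had the most company, with 2471 genes at r of at least 0.95, led by ZCCHC14, SLAIN2, MOB3A, ATP5MPL and DMRTB1 (r of at least 0.999).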

How the data were processed

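The authors deposited FPKM values of genes and of transcripts, 1 column per library. According to the Methods, ribosomal reads were removed with Bowtie2, the others mapped with TopHat2 and transcripts assembled with StringTie. For circRNAs, the Methods name Cuffdiff and the Results of the paper name Cuffdiff and Ballgown, but no tool is named for the FPKM values of genes. The libraries were strand-specific. The tables give no counts, so no counting interval was computed, and the read totals that the study lists per library were not used here. Positions are those of the tables, and 99.7% of 16298 symbols overlapped the RefSeq locus of the same symbol on ARS-UCD2.0. The Methods of the paper, however, name a UMD assembly as the reference genome. The RefSeq list was used only for gene names and neighbours.

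Here, log2(FPKM + 1) was fitted with limma 3.58.1 (R 4.3.3, mean-variance trend), for genes and for transcripts that reached 1 FPKM in 3 or more of the 6 libraries. The procedure was also run on simulated data with independent noise and a change in a small part of the genes. The data here differ, with 45.3% of the genes tested called, so no conclusion is drawn from that run. Single values used an exact permutation test over 20 labelings. The members and lists were chosen with earlier results of these data known. In each list, up to 4 called genes of largest change whose groups did not overlap were named, with the largest called change in the other direction for KIT signalling and differentiation partners (none was called lower in the retinoic acid list), besides the members and the 5 genes most like each. MEIOC, YTHDC2 and RARG are each in 2 lists, as are DMRTB1 and NR5A1. CYP17A1, in the Leydig cell list, has 3 entries, of which the first was used. Alternatives covered the pseudocount, filter, scaling, trend, weights, block and left-out animals.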

Additional observations from a re-analysis of the deposited data

How the results depend on the processing

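The tables hold no counts, calf 3 carries few testis genes, and 3 animals a group limit the precision. STRA8 was called under all 14 alternatives and DMRT1 under none, and all 4 members had the same sign throughout. With 1 member called as reported, 2 were called with a pseudocount of 0.1, 2 after scaling by the median ratio, 2 with array weights and 3 after quantile normalization, and 1 to 2 when each animal was left out in turn. The added calls were KIT (−1.03 with the pseudocount of 0.1, −1.03 after median-ratio scaling, −1.18 with array weights, −1.47 after quantile normalization) and KITLG (−1.80 after quantile normalization). Rescaling to a common sum weakened both, to −0.76 for KIT (limma, adjusted p = 0.0318) and −1.11 for KITLG (adjusted p = 0.215), and neither was called. The summed FPKM was 1066180, 1098720 and 587066 in the calves and 732130 to 776839 in the bulls. Over the left-out animals, KIT lay between −1.17 and −0.76 (called without calf 3, and with an adjusted p above 0.05, from 0.0528 to 0.0868, without any other animal), KITLG between −1.56 and −0.77 (called without calf 1), DMRT1 between 0.47 and 3.47 and STRA8 between 2.61 and 3.29. The entry in the place of SOHLH1 differed by 1.03 as reported, reversed to −0.14 with array weights, and lay between −0.22 (reversed, without calf 3) and 1.71 over the left-out animals. KITLG against the Sertoli cell genes lay between −1.65 and 0.42, reversed only without calf 3. The 3 called transcripts of members became 2 to 4.

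The number of genes called lay between 7318 and 9337 over the alternatives, against 8215 as reported. With calf and bull of the same number as a replicate block, 8128 genes were called, STRA8 among them, and KIT had an adjusted p of 0.0560. Deviations of same-numbered animals correlated at 0.0277, 0.0246 and 0.0341, and each library correlated best with its own number, but the labels give no shared origin. The planned search for motifs in promoters was not run, since no sequences were used here.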

Other observations

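Calf 3 differed among the members in an uneven way. Relative to the mean of calf 1 and calf 2, it held 0.00165 of DMRT1, 0.148 of STRA8, 0.591 of KIT and 3.01 times KITLG, while the entry in the place of SOHLH2 stood at 1.27. Melanocyte genes split in the bulls. TYR rose from 2.38, 0.555 and 0.0311 to 19.7, 25.7 and 28.7 (log2 difference 3.86, adjusted p = 0.000692, limma), and PMEL and MLANA were called higher (2.87 and 1.51). MLANA passed the filter through the bulls alone. MITF was called lower, and TYRP1, not tested, was lower in each bull than in each calf. DCT was not tested, and its groups overlapped. These genes were named after their values were seen.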
